A study of Bos taurus with 48 samples.

Results

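Regulators of mitochondrial biogenesis were followed in bovine longissimus muscle from the fetus to 30 months of age and through a diet experiment. Of the 9 genes listed (PPARGC1A, ESRRA, ESRRG, NRF1, TFAM, TFB2M, PPARA, PPARD and GABPA), 8 were found by the gene name of a probe, or by the symbol in parentheses in its description. These 8 genes had 10 of the 21475 probes of the array, and ESRRG had none by this rule. Total RNA of 35 animals was hybridised on 48 arrays with 2 colours each, which gave 96 channels. The developmental arrays set a Piedmontese × Hereford cross against a Wagyu × Hereford cross at 10 time points, namely 60, 135 and 195 days of gestation, birth, and 3, 7, 12, 20, 25 and 30 months. The diet arrays set Belmont Red cattle on a weight loss diet, called restricted here, against Belmont Red cattle on a weight growth diet at 3 time points labelled 0, 1 and 2. All samples were biopsies of the longissimus muscle, a mixed tissue that was not sorted into cell types. The post-natal animals were sampled repeatedly, so that 9 animals gave the values from 3 to 30 months.

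A muscle fibre builds new mitochondria by switching on nuclear genes for the respiratory chain together with the proteins that copy and transcribe mitochondrial DNA. PPARGC1A (PGC-1α) is a coactivator that binds no DNA itself. It works through the orphan nuclear receptors ESRRA and ESRRG, through NRF1 and GABPA (a subunit of NRF-2), and through the fatty acid receptors PPARA and PPARD. NRF1 and GABPA are known to drive TFAM, which packages mitochondrial DNA and opens its promoters, and TFB2M, which is needed to start transcription there. In skeletal muscle this programme is known for its response to exercise, to cold and to the switch of fuels around birth.

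Each probe is an oligonucleotide of 60 bases, and its first 30 bases are given for the genes on which the results turn, so that the measured stretch can be placed. PPARGC1A has a pair of probes, while ESRRA, TFB2M, GABPA and TFAM have a single probe each. The genome build of the design was not given in the sources used here, so no positions are printed and no letters are capitalised.
PPARGC1A, probe 1: ctggaggcaaatttcagcatagatctgtaa
PPARGC1A, probe 2: aagcagtgtttctacttgcactagcatggc
ESRRA: cagggacatggggcaagccagggcccagag
TFB2M: atttttatatcctcctgggggagcagaaga
GABPA: aaatggaatttttcacagctgaagcatgta
TFAM: ataatcagacttgatggttgtacatgtgag

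The share of spots that the scanner software marked as well above background ran from 49.3% to 71.4% over the Cy3 channels and from 54.2% to 74.9% over the Cy5 channels. At 60 days each cross was represented by 1 fetus, hybridised 3 times. The Piedmontese samples at 195 days carry the codes GP041A and GP041B. These were counted as 2 fetuses but may be 1 animal, so some results are also given with them as 1. One Piedmontese fetus at 135 days stood apart, with a mean correlation of 0.926 with the other channels of its time point, where the next lowest of the 96 channels had 0.965 and the highest 0.993. The mean log2 signal of 9 muscle fibre markers was 10.70 in this fetus and 15.38 to 15.95 in the other 4 fetuses of that age, and that of 5 adipocyte markers was 13.36 against 8.03 to 9.24. Its labelled tissue therefore went against its markers, and some results are also given without it. Of 14 called differences refitted without it, 13 kept direction and call.

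Detection differed among the genes. ESRRA, GABPA, TFAM and TFB2M were well above background in all 96 channels, as was PPARGC1A probe 2. PPARGC1A probe 1 was well above background in 90 channels, and the missing ones were 3 of 6 at 60 days, 2 of 6 at 135 days and 1 of 6 at birth. PPARA passed in 76 channels, among them 2 of 6 at 60 days. NRF1 passed in 69 channels, with the lowest share at 25 months (37.5%). PPARD probe 1 passed in 34 channels and in none of the 16 at 25 and 30 months, and PPARD probe 2 passed in 1 channel of 96. A gene was tested where a probe passed in at least 24 channels and had a value on every array, so PPARD rests on probe 1 and PPARGC1A on probe 1, since PPARGC1A probe 2 was flagged as an outlier on 1 array at 3 months. Low signals were compressed by the background offset, so the differences of PPARA, NRF1, PPARD and PPARGC1A probe 1 are smaller than those of the RNA may be.

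**Figure D1:**
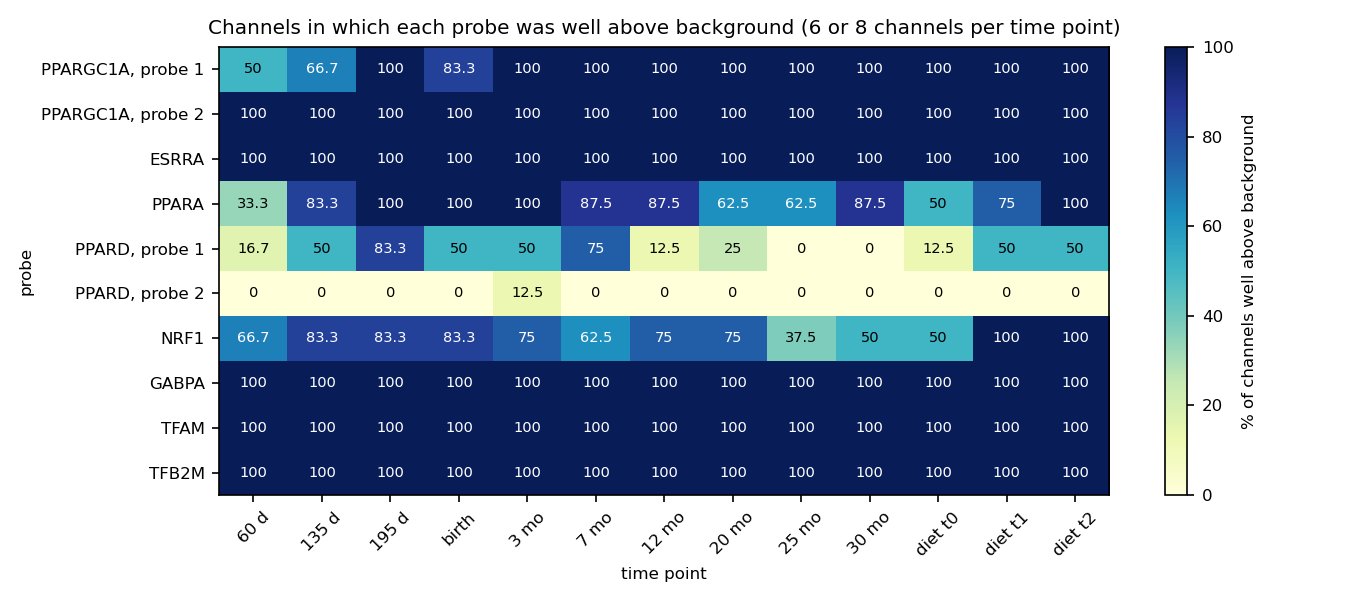
Share of channels (percent) in which each of the 10 probes was well above background, at 13 time points with 6 or 8 channels each. ESRRA, GABPA, TFAM, TFB2M and PPARGC1A probe 2 stand at 100 throughout, while PPARD probe 1 falls to 0 at 25 and 30 months.

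The first question was how the regulators differ between fetal and post-natal muscle. The coactivator, 1 nuclear receptor, GABPA and both mitochondrial transcription proteins were higher in post-natal than in fetal muscle. Of the 8 genes, 5 were called higher and none lower in 9 post-natal animals against 12 fetuses. Each post-natal animal was the mean of its ages from 3 to 30 months, and newborns were in neither group. The test was limma with Benjamini-Hochberg adjustment over 14662 genes, in which 74.8% of all genes were called (38.8% of all genes higher). The median difference of the 8 genes was 0.63 on the log2 scale, and that of all genes 0.02.

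ESRRA, the receptor through which PPARGC1A switches on respiratory chain genes, gave the largest difference of the 8. Its normalised log2 signal was 9.12 at the lowest, 10.67 at the median and 11.58 at the highest in the fetuses, and 13.03, 13.21 and 13.38 after birth. The groups did not overlap, and the difference was 2.65 ± 0.24 (SE; adjusted p = 1.71e-09), which is 6.27-fold. Without the fetus that stood apart it was 2.74.

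TFB2M, the mitochondrial transcription factor, ranged from 9.74 over a median of 10.09 to 10.46 in fetuses and from 11.61 over 11.84 to 12.09 after birth. No animal of either group lay within the range of the other, and the difference was 1.78 ± 0.07 (adjusted p = 5.83e-15). TFAM, which coats mitochondrial DNA, went from 8.29, 8.51 and 8.75 (lowest, median and highest) in fetuses to 9.16, 9.44 and 9.52 after birth. These groups did not overlap either, and the difference was 0.84 ± 0.07 (adjusted p = 1.68e-10).

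PPARGC1A ranged from 6.91 over 7.08 to 7.39 in fetuses and from 7.73 over 7.96 to 8.26 after birth, with a difference of 0.81 ± 0.08 (adjusted p = 4.05e-09). All post-natal animals, each taken as the mean of its ages, lay above all fetuses. Single values after birth went down to 7.22 at 30 months, below the highest fetus. Probe 2 gave 0.93 ± 0.20 (adjusted p = 2.24e-04). Without the 3-month samples the difference of probe 1 was 0.60 (adjusted p = 1.57e-07). GABPA, the DNA-binding subunit of NRF-2, ranged from 8.86 over 9.21 to 9.49 in fetuses and from 9.39 over 9.68 to 9.79 after birth. The groups overlapped only through the lowest post-natal animal, which was sampled at a single age. The difference was 0.46 ± 0.08 (adjusted p = 1.29e-05).

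PPARA, the receptor that turns on fatty acid oxidation, did not pass the test, with a difference of 0.21 ± 0.10 (adjusted p = 0.0628). The differences of NRF1 and PPARD were both 0.02, with intervals (95%) from -0.06 to 0.09. For NRF1, the fetal animals spanned 7.11 to 7.35 and the post-natal animals 7.18 to 7.27. Fetal and post-natal samples lay on different slides, so stage and slide cannot be told apart. All 6 fibroblast markers fell between the stages (median -2.58, mean signal of the list 13.24 to 14.33 in fetuses and 10.78 to 12.76 after birth). Of the other lists, 4 of 5 blood and 4 of 5 endothelium markers fell, and 4 of 9 muscle fibre and 4 of 6 immune markers rose. Slow fibre markers rose in 4 of 6 and fell in none (median 1.67). In bulk muscle, fewer cells of a type and less RNA per cell cannot be told apart, and the part of these markers in the differences was not tested.

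**Figure D2:**
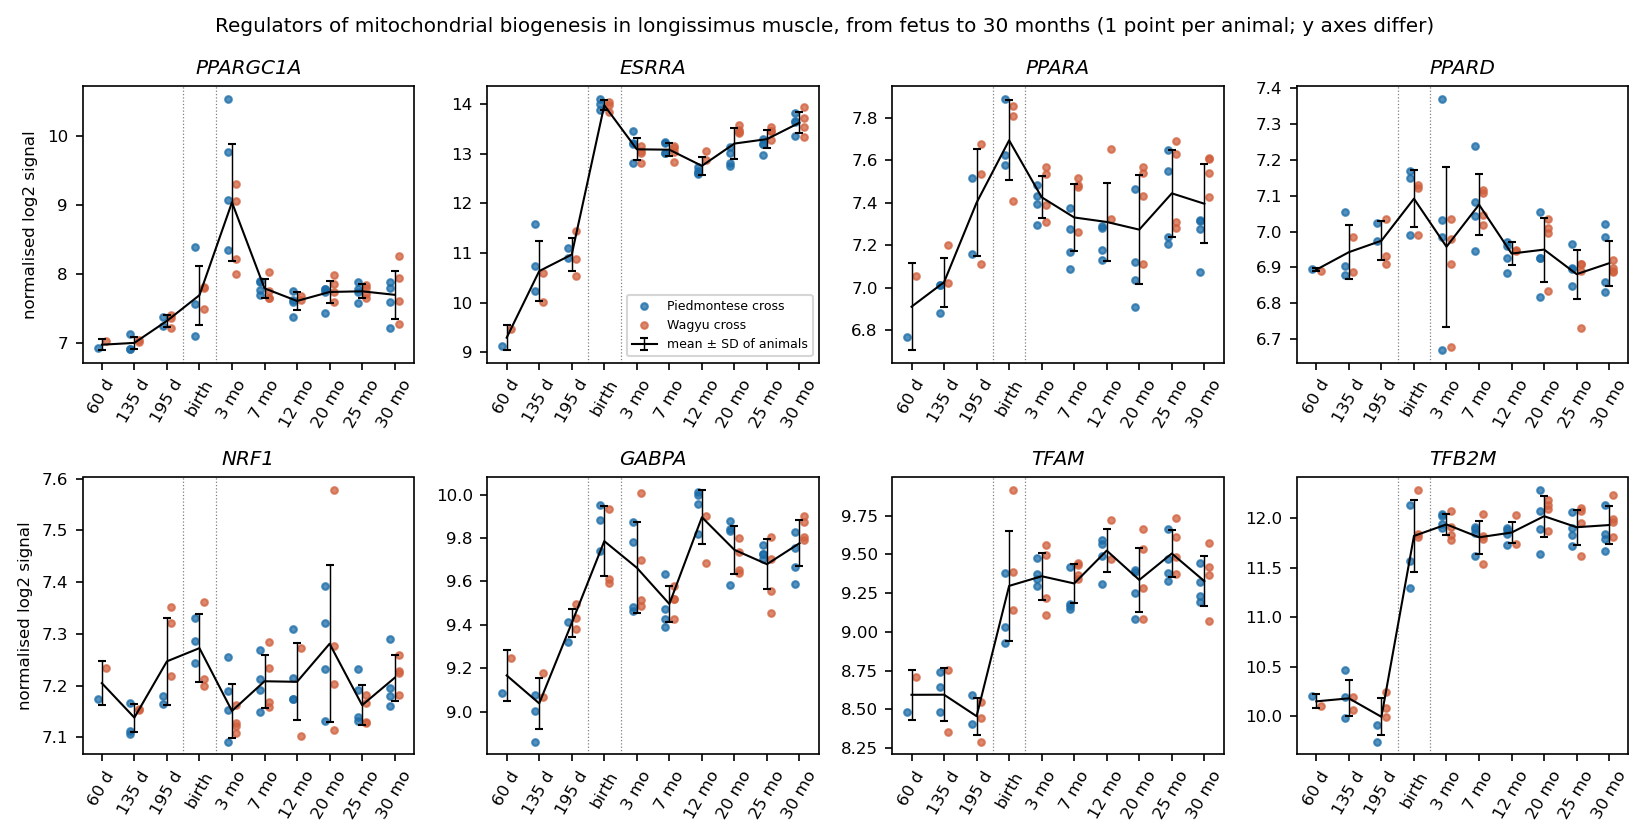
Normalised log2 signal of the 8 genes at 10 time points. Each point is 1 animal, blue for the Piedmontese and orange for the Wagyu cross, the black line joins the means with SD bars, and dotted lines enclose birth. ESRRA and TFB2M step up between 195 days and birth, and PPARGC1A is highest at 3 months.

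Within gestation the changes were fewer. From 60 to 135 days, ESRRA was the only gene of the 8 called, against 10.5% of all genes. The 60-day fetuses stood at 9.12 and 9.47 and the 135-day fetuses at 10.02 to 11.58, with no overlap and a difference of 1.34 ± 0.30 (adjusted p = 0.00713). The fetus that stood apart had the highest of these values, and without it the difference was 1.11 (adjusted p = 0.00159). The other 7 genes moved by -0.13 to 0.12.

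From 135 to 195 days, 2 of the 8 genes were called, both higher, against 17.8% of all genes. GABPA rose by 0.37 ± 0.08 (adjusted p = 0.00669), from 8.86 to 9.18 across 5 fetuses to 9.32 to 9.49 across 5 fetuses, and without array 1 of each time point it did not pass (0.39, adjusted p = 0.06). PPARA rose by 0.37 ± 0.12 (adjusted p = 0.042), with overlapping values. The PPARA call was lost when the fetus that stood apart was left out (adjusted p = 0.0576), when the animals coded GP041A and GP041B were counted as 1 (adjusted p = 0.0637), and when any one of arrays 1, 2 and 3 of each time point was left out. At this step 3 of 9 muscle fibre and 1 of 6 slow fibre markers rose. So did 3 of 5 endothelium markers (mean signal 10.91 to 11.38 at 135 days and 11.50 to 11.79 at 195 days). Of 5 adipocyte markers 2 fell, and the part of all these markers was not tested. The PPARGC1A probes parted here: probe 1 gave 0.32 ± 0.16 (adjusted p = 0.189) and probe 2 gave 1.01 ± 0.30 (adjusted p = 0.0294).

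The largest steps of ESRRA, TFB2M and TFAM lay between 195 days and birth. Here 6 of the 8 genes were called, all higher, while 63.8% of all genes were called (34.3% of all genes higher). The fetal and birth time points share their slides, but each took the same place on every slide. Age and place on the slide cannot be told apart in these values. ESRRA ranged from 10.53 to 11.43 in 5 fetuses and from 13.84 to 14.11 in 6 newborns, a rise of 3.01 ± 0.21 (adjusted p = 4.4e-09) or 8.04-fold. TFB2M went from 9.74 to 10.24 in the fetuses to 11.29 to 12.28 in the newborns, a rise of 1.83 ± 0.15 (adjusted p = 2.34e-08). TFAM went from 8.29 to 8.59 to 8.93 to 9.91, a rise of 0.84 ± 0.14 (adjusted p = 7.31e-05).

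In these 3 genes, and in GABPA, every newborn lay above every 195-day fetus. How many of all genes part in this way was not counted. GABPA rose by 0.38 ± 0.08 (adjusted p = 6.78e-04). PPARA rose by 0.29 ± 0.12 (adjusted p = 0.0361; 0.167 without array 1 and 0.0508 without array 3) and PPARGC1A by 0.37 ± 0.15 (adjusted p = 0.0436), and both ranges overlapped between the ages. PPARGC1A in newborns spanned 7.10 to 8.39. Its call was lost with probe 2 (0.11, adjusted p = 0.748), with plain background subtraction and with other settings, and leaving out array 1 or array 2 of each time point gave 0.38 (adjusted p = 0.154) and 0.22 (adjusted p = 0.195). At the same step 5 of 6 fibroblast, 4 of 5 blood and 4 of 5 endothelium markers fell. There 1 of 9 muscle fibre and 1 of 6 slow fibre markers rose, and the part of all these markers was not tested.

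The next question was what followed birth. Between birth and 3 months 3 of the 8 genes were called, against 45.3% of all genes, and they went opposite ways. PPARGC1A rose while ESRRA and PPARA fell. PPARGC1A was 7.10, 7.68 and 8.39 (lowest, median and highest) in 6 newborns and 7.998, 9.06 and 10.53 in 8 animals at 3 months. The spread at 3 months (SD 0.85) was the widest of the gene at any age, and the difference was 1.34 ± 0.34 (adjusted p = 0.00555). Probe 2 gave 1.99 ± 0.49 (adjusted p = 0.00537). Without array 3 of each time point, the difference of probe 1 was 1.02 (adjusted p = 0.0815).

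ESRRA fell from 13.84 to 14.11 in newborns to 12.81 to 13.46 at 3 months, with no overlap and a difference of -0.89 ± 0.10 (adjusted p = 7.67e-06). PPARA differed by -0.27 ± 0.08 (adjusted p = 0.0153), a call that was lost without array 1 (adjusted p = 0.114) or array 4 (adjusted p = 0.0544). TFAM and TFB2M stayed within 0.12 of their levels at birth and did not pass. Birth and 3 months lay on different slides, so age and slide cannot be told apart in these values. Between them 4 of 6 fibroblast markers rose (mean signal 11.02 to 11.88 at birth and 11.74 to 12.53 at 3 months). So did 5 of 6 immune markers (7.57 to 8.01 and 8.44 to 9.10). A rise was also seen in 3 of 5 adipocyte, 2 of 9 muscle fibre and 1 of 6 slow fibre markers. The part of all these markers was not tested.

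PPARGC1A was the only one of the 8 genes called between 3 and 7 months, against 18.4% of all genes. At 3 months the Piedmontese animals stood at 8.34, 9.06, 9.76 and 10.53, and the Wagyu animals at 7.998, 8.21, 9.06 and 9.30. At 7 months all 8 animals lay between 7.65 and 8.03. Values were high at 3 months in both crosses, and the ages overlapped only at the edge, where the lowest animal of 3 months lay just under the highest of 7 months. Of 7 animals measured at both ages, 6 fell.

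The difference of PPARGC1A from 3 to 7 months was -1.20 ± 0.21 (adjusted p = 1.03e-04), which is 2.29-fold lower. Leaving out each array in turn gave -1.40 to -0.92. Probe 2, without the array on which it was flagged, gave -1.96 ± 0.27 (adjusted p = 7e-06), from 12.10 to 15.35 in 6 animals at 3 months to 11.85 to 12.38 in 8 animals at 7 months. The ages from 3 to 20 months share slides, but each took the same place on every slide. Age and place on the slide cannot be told apart. Of the other genes, GABPA changed by -0.15 ± 0.07 (adjusted p = 0.141), PPARD by 0.12 ± 0.06 (adjusted p = 0.18) and ESRRA by -0.04 ± 0.10 (adjusted p = 0.846).

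Fatty acid genes also fell at this step. Of 18 genes known as PPAR targets of fatty acid use, 7 fell and 1 rose between 3 and 7 months (18.4% of all genes called), led by PDK4, which spares glucose by blocking pyruvate dehydrogenase (-2.48 ± 0.53, adjusted p = 0.00102), and ANGPTL4, an inhibitor of lipoprotein lipase (-2.02 ± 0.50, adjusted p = 0.00456). None of 22 respiratory chain targets was called at this step. Among blood markers 4 of 5 fell (median -1.83), and their mean signal spanned 7.88 to 11.39 at 3 months and 7.84 to 8.94 at 7 months. Of 5 endothelium markers 2 fell, of 5 adipocyte markers 2 rose, and none of 9 muscle fibre markers was called. The part of these in the difference was not tested.

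From 7 months onwards the changes were small. Between 7 and 12 months 2 of the 8 genes were called, both higher, against 14.8% of all genes. GABPA rose by 0.36 ± 0.08 (adjusted p = 0.00126), from 9.39 to 9.64 in 8 animals to 9.69 to 10.01 in 6, and it rose in all 5 animals measured at both ages. TFAM rose by 0.22 ± 0.07 (adjusted p = 0.0263) and also rose in 5 of 5 animals. The TFAM call was lost on leaving out any one of the 4 arrays (adjusted p from 0.0544 to 0.138). At the same step 4 of 6 fibroblast markers fell, and their part was not tested.

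Between 12 and 20 months 2 of the 8 genes were called, against 16.6% of all genes. ESRRA rose by 0.41 ± 0.11 (adjusted p = 0.00821), from 12.59 to 13.06 in 6 animals to 12.76 to 13.58 in 8, and it rose in 6 of 6 animals. TFAM fell by 0.22 ± 0.07 on the log2 scale (adjusted p = 0.0167) and fell in 6 of 6 animals. Neither call held without array 4 (adjusted p = 0.0616 for ESRRA and 0.0661 for TFAM), and that of TFAM was also lost without array 1 (adjusted p = 0.0618) or array 3 (adjusted p = 0.118). All 5 adipocyte markers and 3 of 5 blood markers rose at this step, and their part was not tested.

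Between 25 and 30 months 2 of the 8 genes were called, against 24.9% of all genes. ESRRA rose in all 8 animals, from 12.96 to 13.53 to 13.32 to 13.93, by 0.33 ± 0.10 (adjusted p = 0.0139). TFAM was lower in all 8 animals, by 0.18 ± 0.06 on the log2 scale (-0.18, adjusted p = 0.0272). With log2 values centred on the median of each array and dye, the difference of TFAM was 0.43 (adjusted p = 0.0627), while the median of all genes moved by 0.47 under that scaling. The ESRRA call was lost without array 2 (adjusted p = 0.0896) or array 4 (adjusted p = 0.109), and the TFAM call without array 1 (adjusted p = 0.124), array 3 (adjusted p = 0.0787) or array 4 (adjusted p = 0.095). Here 4 of 5 blood markers fell, from a mean signal of 9.48 to 11.06 at 25 months to 7.59 to 8.85 at 30 months. Of 6 immune markers 4 fell (8.74 to 9.56 and 8.37 to 8.81) and of 6 fibroblast markers 3 fell (11.31 to 12.76 and 10.80 to 11.95), and the part of these was not tested.

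NRF1 and PPARD showed no called difference in any of the 16 comparisons. The means of NRF1 over the 13 time points lay between 7.14 and 7.32, and those of PPARD between 6.88 and 7.09. NRF1, a transcription factor named for nuclear respiration, had its highest mean at time 2 of the diet experiment, but the SD within an age (0.03 to 0.15) covers most of that range. PPARD, a fatty acid receptor of oxidative muscle, was well above background in 5 of 6 channels at 195 days and 6 of 8 at 7 months, but in none at 25 and 30 months. Between 7 and 12 months it was lower in 5 of 5 animals, by a difference that did not pass (-0.15 ± 0.07, adjusted p = 0.155). The means of PPARA ranged more widely, from 6.91 at 60 days to 7.69 at birth.

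Taken by mean level, ESRRA ran in the order of 60 days, 135 days, 195 days, then 12 months, 7 and 3 months, 20 and 25 months, 30 months and birth. Its neighbours 3 and 7 months (13.09 and 13.08) differed by less than their spread (SD 0.22 and 0.13). TFB2M fell into a fetal band (means 9.99 to 10.18) and a band from birth to 30 months (11.81 to 12.02), and none of the comparisons between those ages that were run called it. ESRRA at 20 and 25 months (13.20 and 13.29) also differed by less than its spread (SD 0.32 and 0.18). PPARGC1A had means of 7.61 to 7.79 at every age from 7 months, next to 9.03 at 3 months.

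None of the 8 genes was called between the crosses. Before birth 0% of all genes were called, and none of the 8 had an unadjusted p under 0.05. At birth none was called, against 0.00682% of all genes, which is 1 gene, and again none had an unadjusted p under 0.05. After birth 0% of all genes were called, and the lowest p among the 8 was that of PPARA (-0.18 ± 0.08, adjusted p = 0.928 by limma).

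The size of what could have been missed differs between genes. After birth the interval of the difference between crosses ran from -0.12 to 0.28 for PPARGC1A, from -0.29 to 0.05 for ESRRA and from -0.24 to 0.10 for TFB2M. At birth, with 3 animals of each cross, that of PPARGC1A ran from -0.77 to 0.75. At single ages after birth the crosses were not tested. At 20 months, an age chosen after its values were seen, ESRRA was 12.76, 12.81, 13.003 and 13.14 in Piedmontese animals and 13.42, 13.43, 13.48 and 13.58 in Wagyu animals, while at 30 months the crosses overlapped (13.35 to 13.81 against 13.32 to 13.93). The deposited log ratios of each array, which compare the crosses directly, gave no call among the 8 genes either.

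The last question was how the diet groups differed at each time. The paper describes these samples as adult time points of feed deprivation and re-alimentation. The labels do not say which time falls in which phase, or whether time 0 came before the diets. At time 0 none of the 8 genes was called, against 1.02% of all genes, although 3 had an unadjusted p under 0.05 in limma, all lower in the restricted group. ESRRA was 12.75, 13.39, 13.44 and 13.49 in the growth group and 12.31, 12.40, 12.41 and 12.90 in the restricted group. The groups overlapped by 1 animal each, and the difference was -0.76 ± 0.20 (adjusted p = 0.112). PPARGC1A differed by -0.42 ± 0.15 (adjusted p = 0.243) and TFB2M by -0.46 ± 0.19 (adjusted p = 0.281).

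At time 1 TFB2M was the only one of the 8 genes called, against 13.9% of all genes. It stood at 12.02, 12.03, 12.11 and 12.14 in 4 growth animals and at 10.66, 11.23 and 11.48 in 3 restricted animals. The groups did not overlap, and the difference was -0.95 ± 0.19 (adjusted p = 0.0184), which is 1.94-fold lower. TFB2M was lower at time 1 than at time 0 in all 3 restricted animals, where it fell by 0.34 to 0.53 on the log2 scale, and in 2 of 4 growth animals. The call was lost without array 1 (-1.02, adjusted p = 0.0953) or array 4 (-0.70, adjusted p = 0.0834), with median centring (-0.65, adjusted p = 0.0548) and with the deposited log ratios (-0.93, adjusted p = 0.0665).

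ESRRA at time 1 was 12.90 to 13.26 in growth animals and 11.26, 11.98 and 12.99 in restricted animals. One restricted animal lay within the growth range, and the difference of -1.004 ± 0.36 did not pass (adjusted p = 0.107). PPARGC1A differed by -0.39 ± 0.21 (adjusted p = 0.255) and its probe 2 by -0.86 ± 0.26 (adjusted p = 0.064). GABPA lay the other way, at 9.73, 9.74, 9.78 and 9.87 in growth animals and 10.001, 10.25 and 10.62 in restricted animals, without overlap. Its difference of 0.51 ± 0.15 missed the threshold (adjusted p = 0.06) and passed only with median centring among the alternatives tried.

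The markers of the tissue moved at time 1 as well. Of 9 muscle fibre markers 5 were lower and 1, DES, was higher in restricted animals, and their mean signal was 17.17 to 17.998 in the growth group and 15.84 to 16.05 in the restricted group. Of 6 fibroblast markers 5 were lower, at a mean signal of 11.74 to 12.97 against 9.32 to 10.03, and of 5 endothelium markers 3 were lower. Slow fibre markers were lower in 2 of 6 and higher in none (median -0.90). Their mean signal was 15.56 to 16.38 in the growth group and 14.31 to 14.94 in the restricted group. The part of these in the differences of TFB2M, ESRRA and GABPA was not tested.

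At time 2, with 2 animals in each group, none of the 8 genes was called (0% of all genes) and none had an unadjusted p under 0.05 in limma. TFB2M stood at 11.76 and 11.77 in growth animals and at 11.71 in both restricted animals. From time 1 to time 2 it was up in both restricted animals and down in both growth animals. The change from time 0 to time 1 was set against that of the other diet, and none of the 8 genes was called, against 8.48% of all genes. The largest were GABPA (0.73 ± 0.20, adjusted p = 0.0638) and TFB2M (-0.55 ± 0.15, adjusted p = 0.0598), and both had an unadjusted p under 0.05. Each diet time lay on a slide of its own that both diets share, so a diet difference is within a slide while time and slide cannot be told apart.

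**Figure D3:**
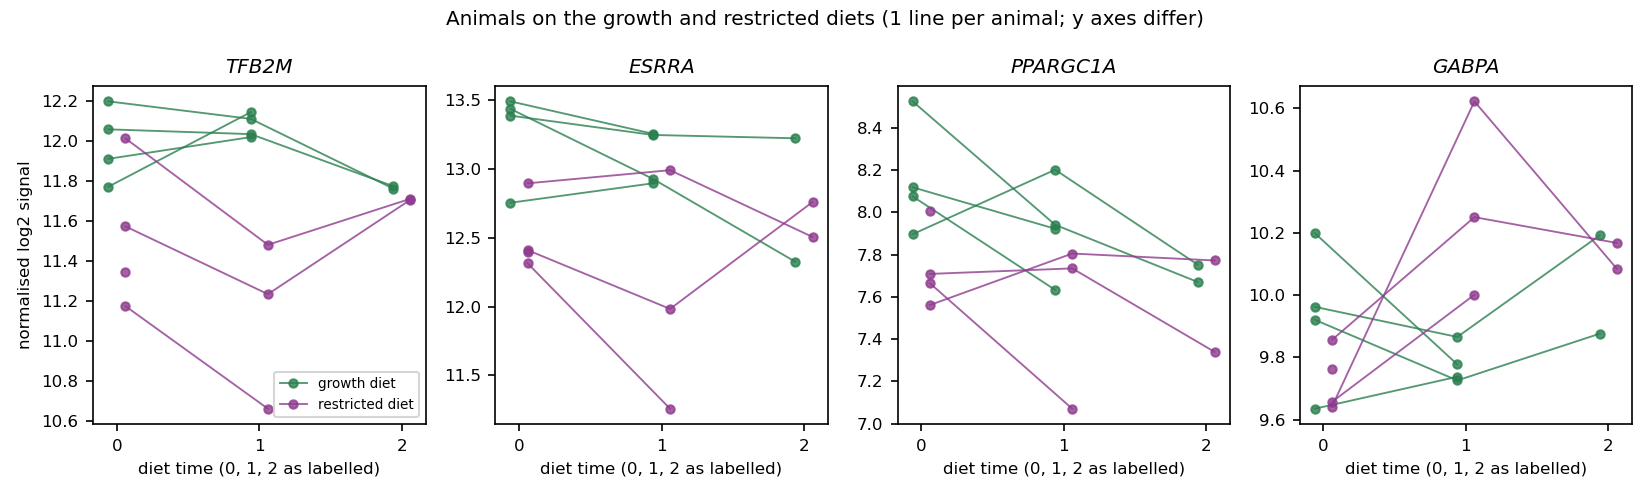
Normalised log2 signal of 4 genes in Belmont Red cattle at diet times 0, 1 and 2, with 1 line per animal, green for the growth and purple for the restricted diet. At time 1 the restricted animals lie below the growth animals in TFB2M and above them in GABPA, and at time 2 TFB2M lies between 11.71 and 11.77 in all 4 animals.

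**Figure D4:**
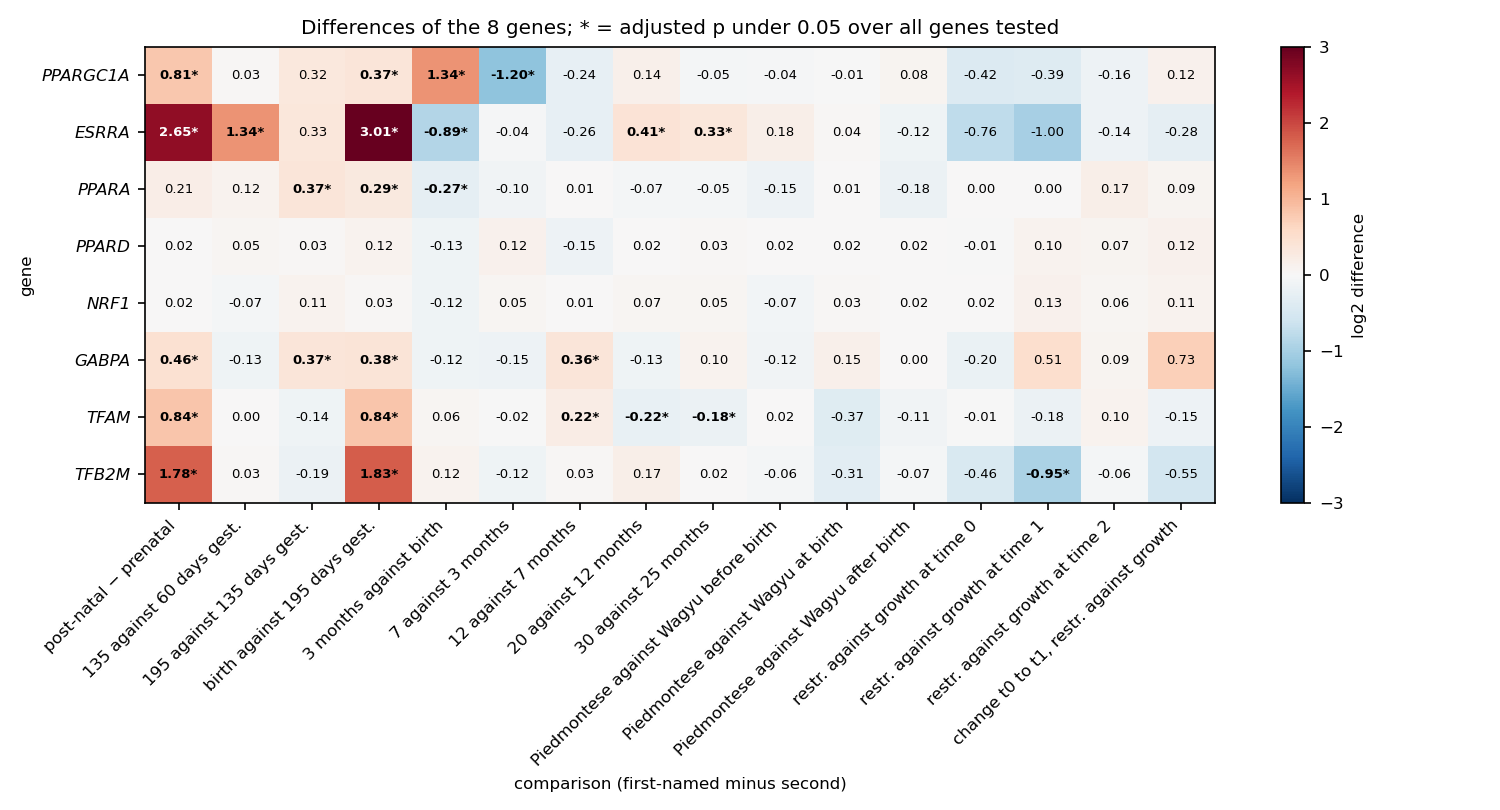
Log2 difference of the 8 genes (rows) in the 16 comparisons (columns), as colour and number, with a star where the adjusted p was under 0.05. Stars are most frequent for post-natal against prenatal (5, where 74.8% of all genes were called) and birth against 195 days (6, where 63.8% were called). The columns of the crosses have none, where at most 0.00682% of all genes were called.

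Other genes of the pathway were counted from lists of known coactivators and partners, mitochondrial DNA maintenance, respiratory chain targets, fatty acid targets, and mitochondrial import and dynamics. For these lists, after birth means post-natal against fetal animals, with newborns in neither group. Among 23 coactivators and other regulators, 14 rose and 3 fell after birth, a total near the 74.8% of all genes called (38.8% higher). CAMK2A, a calcium-dependent kinase, rose by 1.83 ± 0.58 (adjusted p = 0.00732) and the muscle transcription factor MEF2A by 1.40 ± 0.12 (adjusted p = 4.13e-10). PPRC1, a relative of PPARGC1A, was lower (-1.22 ± 0.12, adjusted p = 1.28e-08), as was the growth regulator MYC (-1.26 ± 0.19, adjusted p = 2.98e-06). The median of the list was 0.55.

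Genes that maintain and transcribe mitochondrial DNA were mixed, with 10 of 14 higher and 4 lower after birth, where 74.8% of all genes were called. SLC25A4, the ADP/ATP carrier of muscle, rose by 2.62 ± 0.33 (adjusted p = 2.58e-07) and the elongation factor TEFM by 1.06 ± 0.09 (adjusted p = 1.23e-09). The mitochondrial thymidine kinase TK2 was lower (-0.74 ± 0.10, adjusted p = 4.56e-07), as was the inner membrane protein MPV17 (-0.46 ± 0.07, adjusted p = 4.05e-06).

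All 22 respiratory chain targets tested rose after birth, with a median of 1.32 against 0.02 over all genes, of which 38.8% rose. CYCS, cytochrome c, rose by 2.86 ± 0.17 (adjusted p = 1.67e-12), and ALAS1, the first enzyme of haem synthesis, by 2.62 ± 0.21 (adjusted p = 2.06e-10). From 60 to 135 days 10 of the 22 rose and none fell, where 5.08% of all genes rose. The mean signal of the list was 12.91 and 12.94 in the 2 fetuses at 60 days and 13.30 to 13.89 at 135 days. The fetus that stood apart is among those at 135 days, and the lists were not refitted without it. From 195 days to birth 20 rose, where 34.3% of all genes rose. Between 25 and 30 months 14 of the 22 fell and none rose (median -0.22), where 24.9% of all genes were called. With median centring the median of all genes moved upwards at this step, and the lists were not refitted under that scaling.

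Of 18 fatty acid targets 17 rose and 1 fell after birth (median 1.55). UCP3, the uncoupling protein of muscle, rose by 6.58 ± 0.14 (adjusted p = 2.75e-19) and PDK4 by 4.70 ± 0.19 (adjusted p = 3.77e-15), while PLIN2, a lipid droplet protein, was lower (-1.29 ± 0.19, adjusted p = 2.91e-06). Between 25 and 30 months 16 of the 18 rose (median 0.50), where 13.7% of all genes rose, led by PDK4 (4.11 ± 0.50, adjusted p = 2.19e-07). This list was not refitted with median centring either. Of 17 genes of import and dynamics 14 rose and 1 fell after birth, where 74.8% of all genes were called and 38.8% rose, among them the import channel TIMM23 (1.79 ± 0.08, adjusted p = 2.7e-14) and the fission protein FIS1 (1.97 ± 0.17, adjusted p = 8.22e-10), while the chaperonin HSPD1 was lower (-0.41 ± 0.16, adjusted p = 0.0273).

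At diet time 1, 13.9% of all genes were called. Respiratory chain targets were lower in restricted animals in 8 of 22 and higher in none, with ALAS1 at -1.60 ± 0.16 (adjusted p = 0.00403) and NDUFS1, a complex I subunit, at -1.46 ± 0.39 (adjusted p = 0.0462). Fatty acid targets were lower in 5 of 18, with UCP3 at -2.12 ± 0.38 (adjusted p = 0.0151) and FABP3, a fatty acid carrier of muscle, at -2.05 ± 0.29 (adjusted p = 0.00791). The counts of the remaining pathway lists were near or below that share. Coactivators had 1 called of 23, RXRB, the partner of the PPARs, at 0.49 ± 0.10 (adjusted p = 0.023). In mitochondrial DNA maintenance the polymerase POLG was higher (0.51 ± 0.11, adjusted p = 0.0263) and SLC25A4 lower (-1.30 ± 0.25, adjusted p = 0.0166), which makes 2 of 14. In import and dynamics 1 of 17 was called, the prohibitin PHB2 (0.87 ± 0.12, adjusted p = 0.00735). Muscle fibre markers were also lower at this time in 5 of 9 and higher in 1. Their mean signal was 15.84 to 16.05 in restricted and 17.17 to 17.998 in growth animals, and their part in these lists was not tested.

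A list of 33 mitochondrial genes that the study had chosen on these same samples had 29 tested, of which all 29 rose after birth and 15 fell at diet time 1 (74.8% and 13.9% of all genes called), which is not independent evidence of a direction. No list had a called gene between the crosses.

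**Figure D5:**
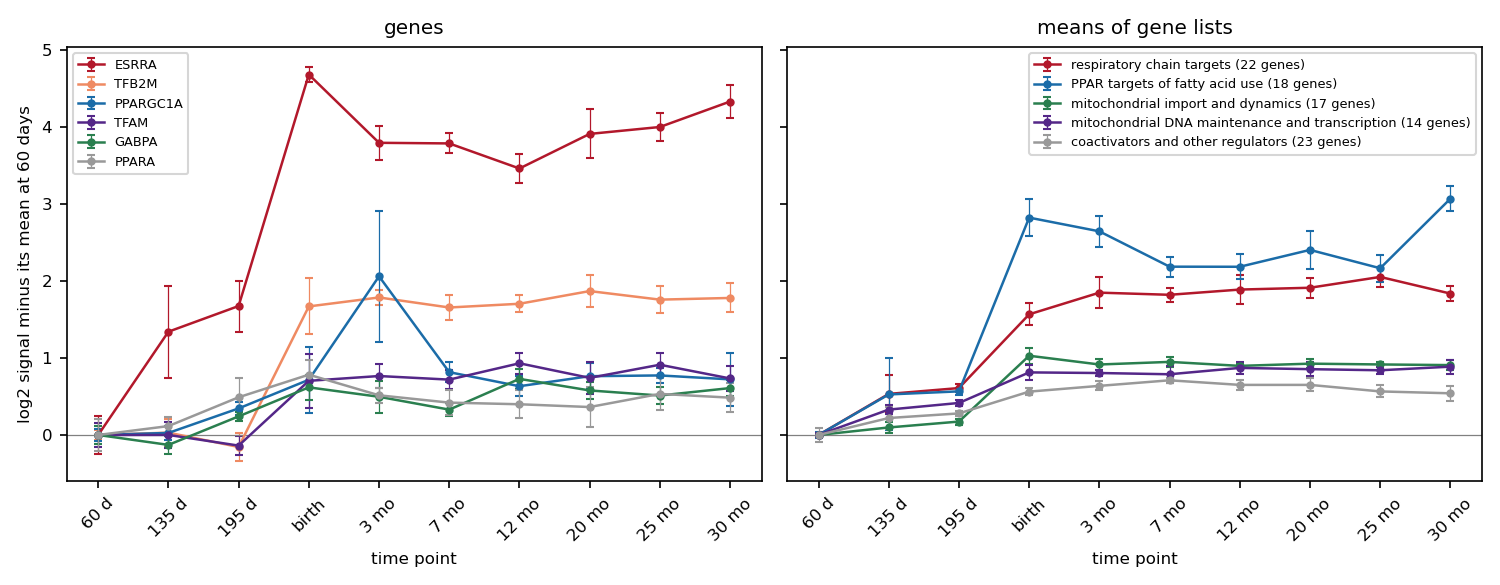
Mean log2 signal minus its mean at 60 days, over animals with SD bars, for 6 of the genes (left) and for the means of 5 gene lists (right). ESRRA and the fatty acid targets step up at birth by more than the others, and the peak of PPARGC1A at 3 months has no counterpart in the means of the lists.

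The likeness of patterns was described by Pearson's r over the means of the 26 conditions (13 time points with both crosses or diets), which share arrays and slides. Among pairs of the 8 genes the highest r was that of TFAM and TFB2M (0.952), then ESRRA and TFB2M (0.915) and ESRRA and TFAM (0.858). Over the 12 post-natal conditions the same pairs had r of 0.144, 0.415 and -0.179. PPARGC1A and ESRRA had r of 0.632 over all conditions and -0.0611 after birth. In ESRRA, TFAM and TFB2M the largest step of the time course lay between 195 days and birth.

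Among all genes, those most like TFB2M were TIGD2 (r = 0.985), NDUFB5 (0.98) and APOO (0.98). For ESRRA, after a sequence without a gene name (0.979), they were RIMKLA (0.976) and MAPKAPK3 (0.973), and for TFAM SNRNP25 (0.958), SPRING1 (0.956) and TCAIM (0.954). GABPA was most like TRMT10B (0.943), NOL7 (0.932) and RALGPS1 (0.931). PPARGC1A, after a sequence without a gene name (0.857), was most like GLB1L2 (0.854) and NOCT (0.849), which encodes nocturnin. Its r with these over the post-natal conditions was 0.824 and 0.815. For PPARA the genes most like it were CYP26C1 (0.863), IMP4 (0.862) and ENPP6 (0.856), and for NRF1 TBC1D9B (0.772), EP400 (0.709) and NCOA6 (0.705). For PPARD they were MARK4 (0.816), a sequence without a gene name (0.779) and SLC39A4 (0.778). Over the post-natal conditions most of these r were lower. In the order named they were 0.304, 0.358 and 0.366 for TFB2M, and 0.123, 0.156 and 0.663 for TFAM. RIMKLA and MAPKAPK3 had 0.573 and 0.541 with ESRRA. The values were 0.891, 0.602 and 0.679 for GABPA, and 0.3, 0.527 and 0.15 for PPARA. NRF1 had 0.524, 0.636 and 0.623, and PPARD had 0.726, 0.827 and 0.799.

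ESRRG, the receptor of slow oxidative fibres, had no probe by name. One probe carries a gene number that RefSeq gives to ESRRG, while its description in the files names the related ESRRB, so its values stand apart from the 8 genes and may belong to either. It was well above background in all 96 channels. Its signal was 8.22, 10.14 and 10.78 (lowest, median and highest) at 3 months and 8.10, 8.58 and 8.89 at 7 months. It fell in 6 of 7 animals between these ages, by -1.30 ± 0.29 (adjusted p = 0.00162), the step at which PPARGC1A fell. From 12 to 20 months it rose by 0.98 ± 0.30 (adjusted p = 0.0211), where PPARGC1A changed by 0.14 ± 0.22 (adjusted p = 0.711). After birth against before, it rose by 0.74 ± 0.16 (adjusted p = 2.8e-04).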

How the data were processed

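Longissimus RNA was labelled and hybridised by the authors. The deposited intensity of each spot and dye (mean signal and local background median) came from Agilent Feature Extraction 9.5.1, as did the deposited log10 ratio of Cy5 over Cy3, which equalled the series table at every spot. The genome build of the design was not given in the sources used here. The authors' mixed-model values were not used.

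With limma 3.58.1 in R 4.3.3, background was corrected by normexp (offset 50), followed by loess within arrays and Aquantile between arrays. Control and outlier spots were dropped, spots of a probe and probes of a gene were averaged, and each gene's mean dye difference was subtracted. Probes well above background in at least 24 of 96 channels with a value on every array were kept, 15737 in all, for 14662 genes. Names came from the files and, for 16712 probes, from RefSeq (ARS-UCD2.0). Channels of 1 animal at 1 time were averaged, and lmFit and eBayes gave two-sided p-values, adjusted by Benjamini-Hochberg at 0.05. Comparisons within post-natal ages had animal as a term, and those within gestation shared 1 fit over 18 animals. An interval of 95% is from the moderated t distribution. The number of arrays limits the precision. PPARGC1B, POLRMT and UCP2 were among the genes not analysed here. All 8 genes were named, with up to 2 that rose and 2 that fell of each list for the comparisons described, and the 3 genes most like each. Members and lists were chosen with earlier results of these data known. Alternatives varied the background, the normalization, the filter, the probe, the arrays, the slide and the animal codes. Tests were checked on simulated data.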

Additional observations from a re-analysis of the deposited data

Results flagged for a closer look

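In 96 sets of 4 to 8 animals (the 8 genes by age, or by diet and time), 3 had an animal far from the others by Dixon's ratio, the gap to the nearest animal over the range of the set. Chance flags about 1 set in 20. At 12 months a Wagyu animal had PPARA of 7.65, next to 7.32 and a lowest value of 7.13 (ratio 0.632). At diet time 0 a growth animal had ESRRA of 12.75, while the other 3 lay between 13.39 and 13.49 (ratio 0.859). At the same time a restricted animal had ESRRA of 12.90, while the other 3 lay between 12.31 and 12.41 (ratio 0.835). The latter pair are the animals by which the diet groups overlapped at time 0.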

How the results depend on the processing

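Of the counts of called genes among the 8, 174 values under the alternatives stayed within 1.5 times the reported count and 28 did not. Counts of 0 that stayed 0, as in all fits between the crosses, are among the 174. For the 25 called differences, 276 alternative values kept direction and call, 47 kept direction only and 1 turned. Each tested gene of the 8 rests on 1 probe. The brightest probe and the stricter filter therefore refitted the same values of the called genes. Both settings kept all 25 calls, which says little about how firm these are. With median centring, which leaves out the correction by intensity, the count was 0 for 135 against 60 days, 0 for 195 against 135 days, 3 for birth against 195 days, 0 for 12 against 7 months, 0 for 20 against 12 months and 6 for 30 against 25 months (3 higher), where TFAM turned to 0.43. All genes called then numbered 426, 511, 6730, 26, 34 and 10700, against 1534, 2613, 9349, 2174, 2437 and 3646, and the share of calls that were higher moved from 48.6% to 36.2% for 135 against 60 days, from 49.3% to 59.9% for 195 against 135 days, from 58.2% to 42.3% for 12 against 7 months and from 54.9% to 70.3% for 30 against 25 months. It also moved from 49.2% to 34.1% for 3 months against birth (1885 genes, against 6644), from 50.4% to 74.2% at diet time 1, from 51.7% to 34.6% at diet time 0 (26 genes, against 149) and from 49% to 78.2% for the diet change. For 7 against 3 months 28 genes were called in all, against 2698. The median of all genes moved to 0.47 for 30 against 25 months, 0.19 at birth, -0.12 for 12 against 7 months, 0.12 after birth and 0.14 for the diet change. For 195 against 135 days, quantile normalization and the counting of GP041A and GP041B as 1 animal each left 1 gene called. Quantile normalization turned the share of higher calls for 7 against 3 months from 55.5% to 41.5% and called 69 genes at diet time 0. With slide as a block, 2 genes were called for 7 against 3 months, PPARGC1A and GABPA, and of all genes 2360 for 135 against 60 days and 108 between crosses after birth, where none of the 8 was called. With the deposited log ratios, 0 of the 8 were called at diet time 1, and of all genes 4, 1078 and 132 at diet times 0, 1 and 2. Without the fetus that stood apart, 2410 genes were called for 135 against 60 days.

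Leaving out each array number in turn gave 0 to 2 genes for 195 against 135 days, 1 to 2 for 7 against 3 months, 1 to 1 for 12 against 7 months, 0 to 2 for 20 against 12 months, 0 to 1 for 30 against 25 months, 0 to 1 for diet time 0 and 0 to 1 for diet time 1, and of all genes as few as 0 at diet time 0, 121 at diet time 1 and 4 for the diet change. Fewer arrays were fitted in these, and the cause of the other shifts was not tested. The alternatives without the fetus that stood apart, without 3 months and with PPARGC1A probe 2 were chosen after seeing the data. By array number, no block was fitted. No paired analysis was possible because these numbers were given in accession order. Animals measured repeatedly were paired by their codes instead, as a term between post-natal ages and as the change within each animal for the diets, and the deposited log ratios pair the animals of an array. PPARD was not well above background in any channel at 25 and 30 months, which limits what can be seen there.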
